A study of Mus musculus with 9 samples.

Results

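Claudins are membrane proteins that line up side by side into the strands of tight junctions, the seals that run around epithelial cells near their apical surface. Each family member gives the strand its own permeability: some close the gap between neighbouring cells, and others leave a charge-selective pore in it. The scaffold proteins of the Tjp (zonula occludens) family tie the strands to actin, and occludin, tricellulin and the angulins belong to the same junction. The genes described here are 8 claudins of epithelia, Cldn1, Cldn3, Cldn4, Cldn6, Cldn7, Cldn8, Cldn10 and Cldn23. They were taken by symbol: every probe set of the array that the platform annotation gives to one of these genes alone was used, which gave 14 probe sets among 34958 with 1 gene symbol and 45101 in all. These probe sets stand for 8 of 18194 genes, and where a gene has several they are numbered from the brightest.

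The arrays measured total RNA of the urogenital sinus, the embryonic tube from which the prostate and part of the lower urinary tract form, in C57BL/6 mice. Pregnant females received bisphenol A (BPA, a weakly estrogenic plastics monomer) at 20 µg/kg/day, a potent synthetic estrogen, diethylstilbestrol (DES), at 0.2 µg/kg/day, or only the vehicle (the agents were given in tocopherol-stripped corn oil). Exposure ran from embryonic day 13 to 16, and the sinus was collected at 3 ages: embryonic days 17 and 18 (E17, E18) and the day the pups were born (P0). Each of the 3 agents (the vehicle counted as 1) has 1 array at each of the 3 ages, 9 arrays in all, so the ages are the only repeats of an agent and the agents the only repeats of an age. Dissection protocols name both male and female tracts, and the labels do not say how many fetuses or litters went into an array or of which sex. The p-values below therefore cover only how these arrays vary among themselves, part of which may be technical. In RNA of a whole tissue, fewer epithelial cells and less RNA per cell cannot be told apart.

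Epcam, which marks epithelium in general, read between 1355 and 1839 on the 9 arrays in normalised signal, the probe set intensity after all arrays were brought to one distribution. The BPA P0 array stood apart before scaling, with a trimmed mean intensity of 157 against 235 to 277 on the others. It also carried a summed signal of 25896 over 13 genes of cornifying epidermis, with 9514 on the BPA E18 array and 2104 on the BPA E17 array, while the control arrays held 1401 to 1602 and the DES arrays 1715 to 2804. Gonadal genes summed to 3144 on the BPA P0 array and to 211 to 313.5 on the other 8. The fitted differences between ages and between agents that use that array are therefore also given without it for the claudins and other junction genes described. Those fits keep the BPA E18 array with its own signal of cornifying epidermis. Claudin values without both the E18 and P0 arrays of BPA are given at the end, only where their direction turned.

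Promoter sequences are shown first, because they let the members be compared on something other than signal. RefSeq (GRCm38.p6) start sites were found for 6 of the 8 genes, and the 250 bases before the start are printed 5′ to 3′ on the gene's own strand. Capitals mark 2 motifs: TGACGTCA, the cyclic AMP response element, and the GC box GGGCGG, which reads CCGCCC on the other strand. Cldn6 lies at chr17:23679115-23679364 (+ strand), and Cldn7, through the more downstream of its start sites, at chr11:69965171-69965420 (+ strand). These 2 windows hold the cyclic AMP response element:
Cldn6: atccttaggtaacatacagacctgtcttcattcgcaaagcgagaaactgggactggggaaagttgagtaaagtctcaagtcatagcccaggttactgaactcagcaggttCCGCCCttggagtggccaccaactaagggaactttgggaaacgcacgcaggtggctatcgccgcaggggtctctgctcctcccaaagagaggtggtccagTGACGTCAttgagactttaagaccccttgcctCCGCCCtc
Cldn7: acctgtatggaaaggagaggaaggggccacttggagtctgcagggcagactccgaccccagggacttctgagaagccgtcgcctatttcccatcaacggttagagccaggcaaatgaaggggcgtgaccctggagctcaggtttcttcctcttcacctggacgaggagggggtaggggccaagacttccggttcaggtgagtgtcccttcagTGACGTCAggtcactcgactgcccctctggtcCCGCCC
The windows of Cldn4 at chr5:134946935-134947184 (− strand) and Cldn10, through its more downstream start, at chr14:118854700-118854949 (+ strand) belong to genes whose fitted difference between P0 and E17 lay below 0, without passing the test:
Cldn4: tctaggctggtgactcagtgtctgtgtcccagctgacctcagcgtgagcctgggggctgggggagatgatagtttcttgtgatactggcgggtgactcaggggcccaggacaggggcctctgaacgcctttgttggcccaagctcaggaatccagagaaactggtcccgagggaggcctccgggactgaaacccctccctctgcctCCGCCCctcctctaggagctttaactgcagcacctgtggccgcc
Cldn10: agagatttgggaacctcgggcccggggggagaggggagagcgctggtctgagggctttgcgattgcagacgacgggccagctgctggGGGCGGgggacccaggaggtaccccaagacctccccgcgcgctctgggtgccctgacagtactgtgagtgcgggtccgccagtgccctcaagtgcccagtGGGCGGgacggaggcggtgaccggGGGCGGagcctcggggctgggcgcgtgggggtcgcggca
The windows of Cldn1 at chr16:26371840-26372089 (− strand) and Cldn3 at chr5:134985964-134986213 (+ strand) belong to genes whose tested probe sets lay above 0 in that comparison, without passing the test:
Cldn1: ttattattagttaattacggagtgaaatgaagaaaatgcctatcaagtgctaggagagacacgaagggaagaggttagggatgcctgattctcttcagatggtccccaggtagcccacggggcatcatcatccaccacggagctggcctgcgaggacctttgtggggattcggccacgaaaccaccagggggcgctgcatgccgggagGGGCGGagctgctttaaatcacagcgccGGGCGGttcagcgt
Cldn3: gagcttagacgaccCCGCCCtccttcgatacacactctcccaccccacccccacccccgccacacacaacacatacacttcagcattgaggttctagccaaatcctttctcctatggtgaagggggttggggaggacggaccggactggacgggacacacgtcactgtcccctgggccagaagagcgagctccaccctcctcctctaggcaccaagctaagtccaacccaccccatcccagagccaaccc

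Both TGACGTCA matches sat at nearly the same place, starting 40 bases before the start of Cldn6 and 38 bases before that of Cldn7. On either strand, this motif was present in 1.79% of 32851 RefSeq promoter windows of 300 bases (250 before the start and 50 after). The GC box was present in 35.7% of them. It was in at least 1 window of each of the 6 claudins, but not in the more upstream windows of Cldn7 and Cldn10. Among its matches wholly within the printed bases, those nearest the start began 8 bases before it in Cldn6, 6 in Cldn7, 14 in Cldn1, 44 in Cldn4, 39 in Cldn10 and 236 in Cldn3. A further match in Cldn4 spans the start, beginning 5 bases before it, and is not in capitals. Both motifs were added after the sequences had been seen. Of 3 motifs chosen earlier, AACCGGTT (bound by Grainyhead-like factors, 0.146% of promoters), the estrogen response element (GGTCA and TGACC with any 3 bases between them, 0.07%) and TATAAA (the TATA box, 13.6%), none occurred in the 8 windows of these genes, which says only that these letters were not there. No motif match overlapped another.

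The comparison of ages held the smallest p-values of the claudins. Cldn6, a claudin of embryonic epithelia and pluripotent cells, read lower at birth than at E17 under every agent. On the control arrays it read 247 at E17, 203 at E18 and 164 at P0. The DES arrays gave 261, 227 and 169 at the same ages, and the BPA arrays 244, 191 and 160. Every array of an age lay apart from every array of the next age, so the order E17, E18, P0 was the same for each agent and no 2 ages overlapped. Over all probe sets, 9.92% had every P0 array below every E17 array. The share that also had E18 apart between them is not given here. The means were 251 ± 9.41 at E17, 207 ± 18.3 at E18 and 164 ± 4.63 at P0 (SD, n = 3 arrays of different agents). Between P0 and E17 the fitted log2 difference of Cldn6 was -0.59 ± 0.12 (SE), with a 95% interval from -0.86 to -0.32, and the pairs of arrays gave -0.58 for control, -0.61 for DES and -0.59 for BPA. The unadjusted p was 0.000645 and the limma p adjusted over 26999 probe sets was 0.0988, above the threshold of 0.05.

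That threshold was passed by none of the 12 claudin probe sets tested, against 0.0926% of all probe sets in the comparison of P0 with E17. Cldn6 passed it under 2 of 20 alternative settings. Without the DES P0 array its log2 difference was -0.57 ± 0.13 with a limma adjusted p of 0.0471, in a fit that called 1606 probe sets in place of 25. On unscaled intensities, whose median difference over all probe sets was itself -0.29, it was -0.89 ± 0.23 with a limma adjusted p of 0.0444. The difference stayed between -0.89 and -0.53 over all 20 settings, with limma adjusted p from 0.0444 to 0.45. Without the BPA P0 array it was -0.61 ± 0.14 (limma adjusted p 0.262), as large as with it. Age took 93.2% of the variance of Cldn6 over the 9 arrays, agent 5.32% and the rest 1.46%, while the medians over all tested probe sets were 27.5%, 21.9% and 41.7%.

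**Figure D1:**
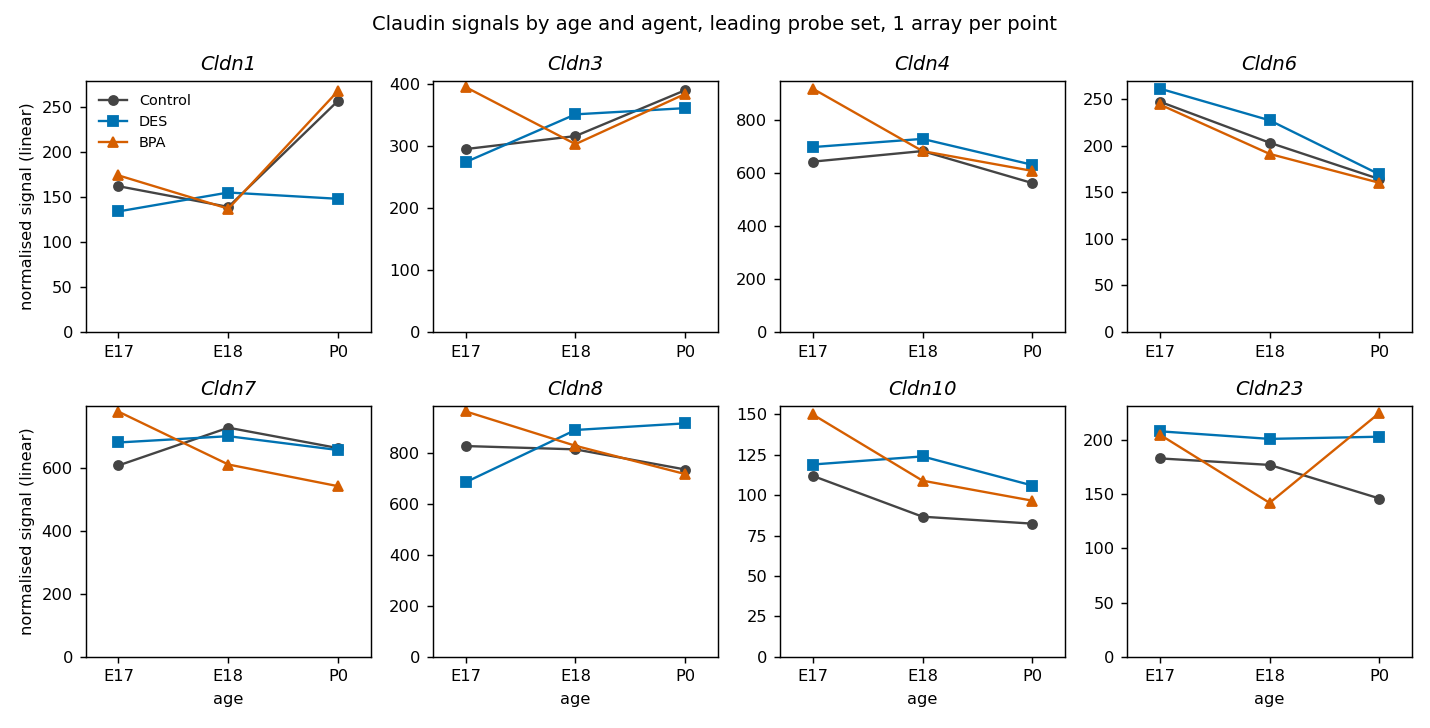
Normalised signal (linear axis from 0) of the leading probe set of each of 8 claudins at E17, E18 and P0, 1 array per point, with lines joining the arrays of one agent: Control (circles), DES (squares) and BPA (triangles). The 3 lines of Cldn6 run close together from 244 to 261 at E17 down to 160 to 169 at P0, and those of Cldn8 and Cldn23 cross.

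Cldn4 and Cldn10, which form or adjust ion pathways through the junction, also read lower at birth than at E17. Cldn4, a barrier claudin that takes part in chloride passage in the collecting duct of the kidney, read 644 at E17, 684 at E18 and 563 at P0 on the control arrays. It read 699, 730 and 632 on the DES arrays and 920, 684 and 609 on the BPA arrays. The P0 arrays lay below all E17 arrays, though narrowly (632 against 644), and the BPA E17 array was the highest by far. The mean was 754 ± 146 at E17 and 602 ± 34.9 at P0 (SD, n = 3), with a log2 difference of -0.31 ± 0.12 (p 0.0272, limma adjusted p 0.233). Without the BPA E17 array that difference was -0.15 ± 0.12, more than 1.5 times nearer to 0, and without the BPA P0 array it was -0.25 ± 0.14.

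Cldn10, a pore-forming claudin whose splice forms pass either cations or anions, read 112, 86.7 and 82.4 on the control arrays in order of age. The DES arrays read 119, 124 and 106, and the BPA arrays 150, 109 and 96.6. All P0 arrays lay below all E17 arrays (106 at most against 112 at least), with E18 arrays on both sides. The mean was 127 ± 20.1 at E17 and 95.1 ± 12 at P0 (SD, n = 3), and the log2 difference was -0.40 ± 0.16 (p 0.0366, limma adjusted p 0.257). It lay between -0.68 and -0.29 over the 20 alternative settings, with -0.34 ± 0.19 (limma adjusted p 0.495) without the BPA P0 array. The probe set is of a type whose probes can be shared by several transcripts, also those of related genes. The splice forms were therefore not separated, and signal from related sequences may be included.

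Cldn1 read the other way. This claudin is needed for the water barrier of the skin, and 4 probe sets measure it. Probe set 1 read 162, 139 and 257 at E17, E18 and P0 on the control arrays, 134, 155 and 148 on the DES arrays and 174, 137 and 268 on the BPA arrays. The control and BPA P0 arrays stood well above the other 7, which lay between 134 and 174, and the DES P0 array was among those 7. The mean was 156 ± 20.5 at E17 and 225 ± 66.2 at P0 (SD, n = 3), so the ages overlapped. The log2 difference between P0 and E17 was 0.47 ± 0.19 (p 0.0352, limma adjusted p 0.255), from 0.65 in control, 0.14 in DES and 0.61 in BPA. The DES P0 array was the lowest of the 3 at P0. Without it the difference was 0.71 ± 0.17 with a limma adjusted p of 0.0469, which passes the threshold. That fit called 1606 of 26999 probe sets in place of 25. Without the BPA P0 array the difference was 0.34 ± 0.22 (limma adjusted p 0.543).

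Cldn1 probe set 2 followed probe set 1 over the 9 arrays (Pearson r 0.85, with arrays that share their scaling). It read 56.3, 72.7 and 118 on the control arrays, 51.9, 48.4 and 65 on the DES arrays and 73.7, 58.1 and 96.3 on the BPA arrays. Its log2 difference between P0 and E17 was 0.55 ± 0.21 (p 0.025, limma adjusted p 0.226), higher in 3 of 3 pairs, and 0.57 ± 0.25 without the BPA P0 array. Without the control E17 array it was 0.35. The other 2 probe sets of Cldn1 read 18.1 to 32.8 and 1.15 to 11.4, below the level of 41.2 required for testing, and were not tested.

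Cldn3, a barrier claudin that binds the same bacterial enterotoxin as Cldn4, was measured by 4 probe sets, all tested. Probe set 1 read 295, 316 and 390 on the control arrays in order of age, 274, 351 and 361 on the DES arrays and 395, 303 and 384 on the BPA arrays. Its ages overlapped because of the BPA E17 array, and its log2 difference between P0 and E17 was 0.25 ± 0.14 (limma adjusted p 0.404). Cldn3 probe set 3 separated the ages: it read 228, 216 and 224 at E17 and 331, 254 and 324 at P0 for control, DES and BPA. Its difference was 0.43 ± 0.14 (p 0.0127, limma adjusted p 0.19), and it lay from 0.12 to 0.56 under its 19 alternatives. Probe sets 1 to 4 of Cldn3, without the BPA P0 array, gave 0.29 ± 0.17, 0.21 ± 0.21, 0.32 ± 0.15 and 0.17 ± 0.22. Probe sets 2 and 4 gave 0.28 ± 0.17 and 0.16 ± 0.18. On unscaled intensities probe sets 1, 2 and 4 of Cldn3 turned to -0.06, -0.02 and -0.13. The 4 probe sets of Cldn3 correlated with each other at r from 0.31 to 0.80 over the 9 arrays. Probe sets 2 and 3 are of a design that can also detect related sequences.

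Cldn7, Cldn8 and Cldn23 had the smallest differences between P0 and E17 among the 8 leading probe sets. Cldn7, which sits along the lateral membrane and binds Epcam, read 689 ± 85.7 at E17, 680 ± 61.2 at E18 and 620 ± 68.4 at P0 (SD, n = 3), a log2 difference between P0 and E17 of -0.15 ± 0.13 with a 95% interval from -0.44 to 0.14. Cldn8, which pairs with Cldn4 in the collecting duct, read 824 ± 139, 843 ± 40.2 and 789 ± 110, a difference of -0.06 ± 0.14 (-0.37 to 0.26). Cldn23 read 199 ± 13.4, 174 ± 29.6 and 192 ± 40.8, a difference of -0.07 ± 0.17 (-0.46 to 0.32). For these 3 genes the 95% interval of the difference between P0 and E17 crossed 0. With the BPA P0 array left out the differences were -0.05 ± 0.14 for Cldn7, 0.06 ± 0.15 for Cldn8 and -0.25 ± 0.18 for Cldn23.

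**Figure D2:**
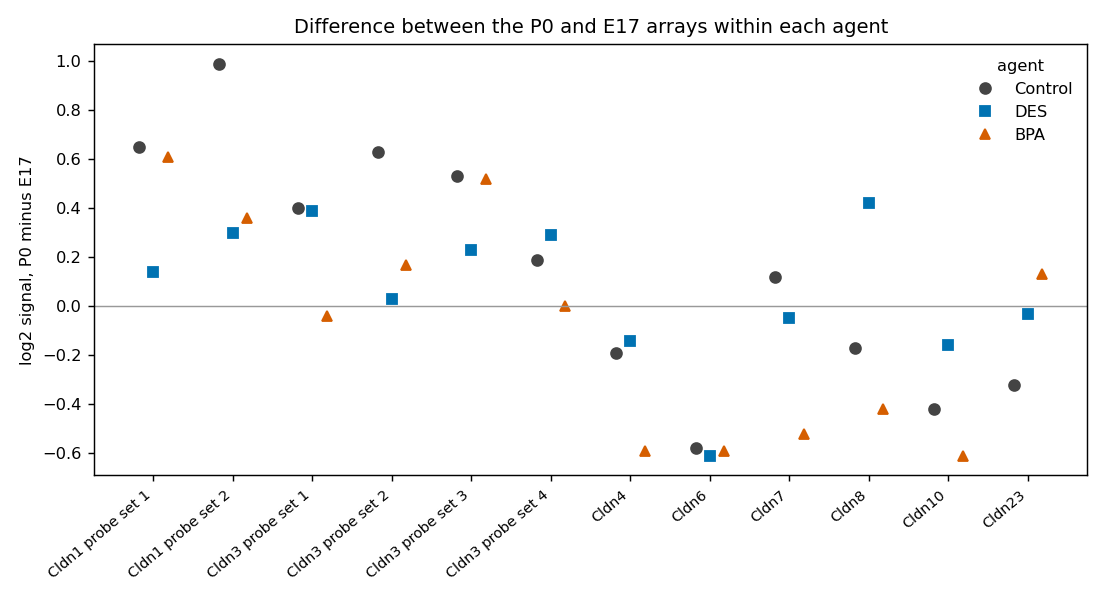
Log2 difference in normalised signal between the P0 and E17 arrays within each agent (vertical axis) for the 12 claudin probe sets tested (horizontal axis), 1 point per agent. The points of Cldn6 coincide between -0.61 and -0.58, while those of Cldn8 run from -0.42 in BPA to 0.42 in DES.

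Counted over the 12 tested probe sets, 6 lay above 0 and 6 below 0 between P0 and E17 (48.9% of all probe sets lay above 0), with a median of 0.05 against -0.01 over all probe sets. At an unadjusted p under 0.05, 3 were higher and 3 lower at P0, where 8.06% and 9.27% of all probe sets were. The arrays of P0 and E17 did not overlap for 1 higher and 3 lower probe sets, where 9.94% and 9.92% of all probe sets separated. The 3 higher probe sets were probe sets 1 and 2 of Cldn1 and probe set 3 of Cldn3, and the 3 lower ones were those of Cldn4, Cldn6 and Cldn10. The probe sets of a gene share its RNA and are not separate evidence.

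General epithelial markers lay on both sides of 0 with age. Of 10 general epithelial genes, 3 lay above 0 between P0 and E17 and none passed the test, with a median of -0.10 and summed signals of 11873 to 15390 at E17 and 11385 to 13493 at P0. With the mean log2 signal of Epcam, Cdh1, Krt8, Krt18 and Esrp1 subtracted from each array, the difference between P0 and E17 was -0.55 ± 0.16 for Cldn6 (limma adjusted p 0.141), -0.26 ± 0.13 for Cldn4, -0.35 ± 0.19 for Cldn10 and 0.52 ± 0.21 for probe set 1 of Cldn1. Each kept its direction and was close to its value without the subtraction. As the same amount is taken from every probe set of an array, the median over all probe sets moved from -0.01 to 0.04. Differences of the size listed could not turn under so small a shift, whatever their source. The part of epithelial content in them was therefore not tested.

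The comparisons with the vehicle asked whether prenatal BPA or DES left the claudins at another level. Both use the same 3 control arrays, so their values are set side by side and are not independent. No claudin passed the limma test over all probe sets for either agent, and neither did any other probe set (0% of 26999), with smallest adjusted p of 0.08 over all probe sets for BPA and 0.843 for DES, while 2118 and 1520 had an unadjusted p under 0.05. Of the 12 tested claudin probe sets, 7 lay above 0 for BPA and 6 for DES, where 49% and 50.8% of all probe sets did, with medians of 0.04 and 0.01 against 0 and 0 over all probe sets. At an unadjusted p under 0.05, none was past the line for BPA (7.84% of all probe sets were) and 1 was lower for DES (2.73%).

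Cldn10 had the largest difference from control among the leading probe sets for both agents. Its mean was 93.8 ± 16.1 on the control arrays, 117 ± 9.21 on the DES arrays and 119 ± 27.9 on the BPA arrays (SD, n = 3 ages). The log2 difference was 0.31 ± 0.16 for BPA (95% interval -0.05 to 0.68, limma adjusted p 0.695) and 0.31 ± 0.16 for DES (-0.06 to 0.67, limma adjusted p 0.855), and without the BPA P0 array that for BPA was 0.37 ± 0.19. At each age both agents read above the control array, yet the arrays of each agent overlapped those of the control because E17 was the highest control age.

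Among the 8 claudins, only Cldn23 had arrays of 1 agent wholly apart from the control arrays. The control arrays read 183, 177 and 146 in order of age, the DES arrays 208, 201 and 203 and the BPA arrays 205, 142 and 225. The DES arrays were all above the control arrays and nearly level with each other, and the BPA arrays held both the lowest and the highest value. The mean was 204 ± 3.28 for DES against 169 ± 19.9 for control, a log2 difference of 0.27 ± 0.17 (95% interval -0.12 to 0.66, limma adjusted p 0.856). Without the control P0 array it was 0.11 and without the control E18 array 0.41. Over all probe sets, 5.87% lay wholly higher on the DES arrays. For BPA the difference of Cldn23 was 0.15 ± 0.17, and -0.03 ± 0.18 without the BPA P0 array.

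The Cldn1 values on the DES arrays had a mean below control for both tested probe sets, farthest below at birth. Its probe set 1 gave a log2 difference from control of -0.29 ± 0.19 (95% interval -0.72 to 0.14), made of -0.26 at E17, 0.15 at E18 and -0.77 at P0. That value was -0.05 without the DES P0 array, -0.18 without the control P0 array and -0.53 without the DES E18 array. Probe set 2 gave -0.48 ± 0.21 (p 0.0436, limma adjusted p 0.843), with -0.11, -0.54 and -0.80 at the 3 ages. For BPA the same probe sets gave 0.05 ± 0.19 and -0.07 ± 0.21, and without the BPA P0 array -0.08 ± 0.22 and -0.05 ± 0.25. At P0 the BPA array read 268 and the control array 257 for probe set 1 of Cldn1, while the summed cornifying epidermis genes read 25896 and 1602 on those arrays.

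For Cldn4 the BPA difference was 0.21 ± 0.12 (95% interval -0.06 to 0.47, limma adjusted p 0.728), made of 0.51 at E17, 0 at E18 and 0.11 at P0. On unscaled intensities it was -0.06. Its DES difference was 0.13 ± 0.12, with 0.12, 0.09 and 0.16 at the same ages. The BPA value was 0.05 without the BPA E17 array, 0.13 without the control E17 array and 0.27 ± 0.14 without the BPA P0 array. The remaining genes lay close to 0 for both agents. Cldn6 gave -0.05 ± 0.12 for BPA and 0.09 ± 0.12 for DES, and Cldn7 gave -0.06 ± 0.13 and 0.03 ± 0.13. Cldn8 gave 0.07 ± 0.14 and 0.06 ± 0.14, and Cldn3 probe set 1 gave 0.11 ± 0.14 and -0.02 ± 0.14. The 95% intervals of Cldn6 ran from -0.32 to 0.22 for BPA and from -0.18 to 0.36 for DES. Without the BPA P0 array the BPA differences were -0.07 ± 0.14 for Cldn6, 0.04 ± 0.14 for Cldn7, 0.19 ± 0.15 for Cldn8 and 0.15 ± 0.17 for Cldn3 probe set 1.

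Most urothelial and general epithelial genes lay above control beside these values. All 6 urothelial genes lay above 0 for BPA (median 0.54) and for DES (median 0.34), with summed signals of 3952 to 4635 on the control, 4932 to 6458 on the DES and 5386 to 7440 on the BPA arrays. Of the 10 general epithelial genes, 9 lay above 0 for each agent, with medians of 0.15 for BPA and 0.11 for DES. Epcam lay below 0, at -0.07 for BPA and -0.09 for DES. Of 4 basal epithelial genes 3 lay above 0 for each agent, with medians of 0.10 for BPA and 0.13 for DES. Their summed signals overlapped, with 3794 to 5929 on the control, 4826 to 5625 on the DES and 4484 to 5007 on the BPA arrays. Over all probe sets 49% lay above 0 for BPA and 50.8% for DES. None of these markers passed the limma test. After subtraction of the epithelial mean, the BPA differences of probe set 1 of Cldn1, of probe sets 1 and 2 of Cldn3 and of Cldn8 turned below 0, at -0.11, -0.05, -0.12 and -0.09, that of Cldn23 to 0.00, and the DES differences of Cldn7 and Cldn8 at -0.05 and -0.03. The subtraction shifts all probe sets alike, with medians over all probe sets of -0.16 for BPA and -0.08 for DES. Small values above 0 therefore turn whatever their source. Of the genes averaged, Krt8 and Krt18 lay at 0.35 and 0.45 for BPA, Cdh1 and Esrp1 at 0.04 and 0.02, and Epcam below 0. The part of these markers in the claudin values was not tested.

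**Figure D3:**
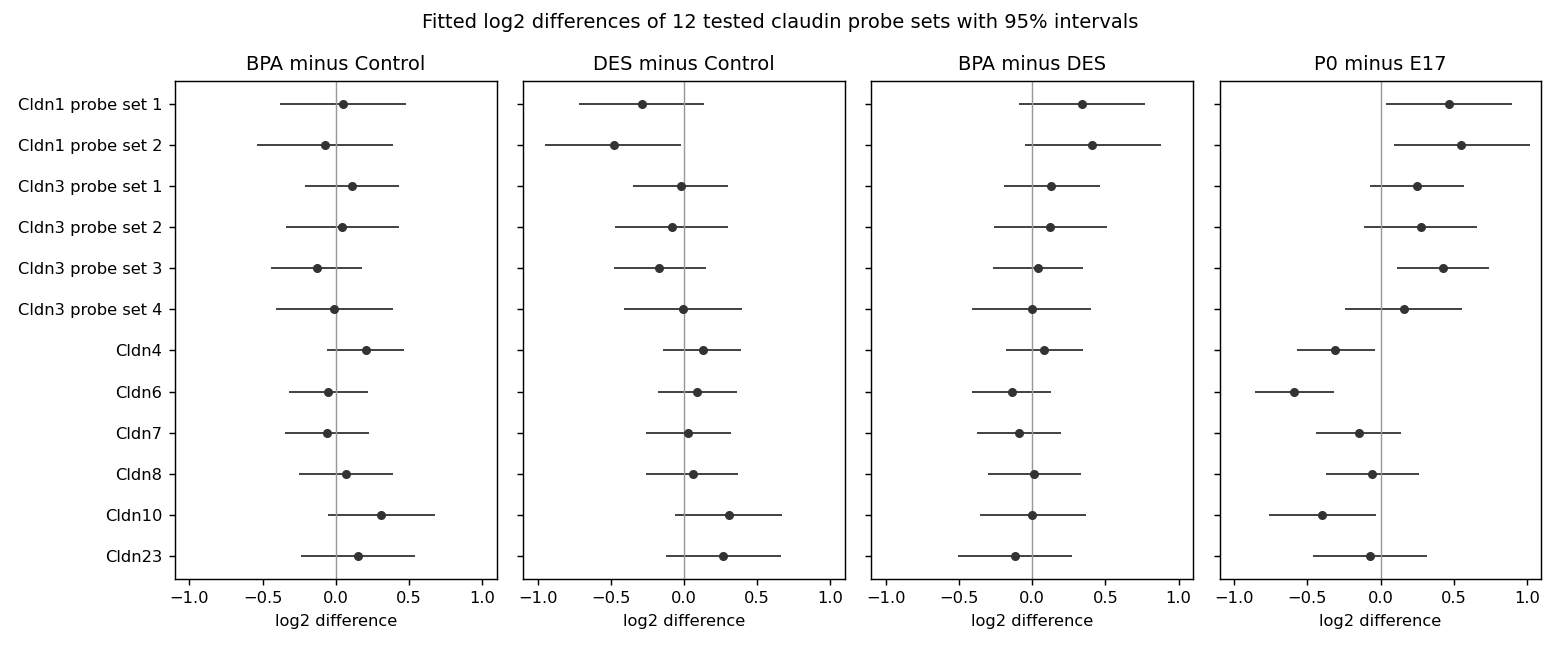
Fitted log2 differences (points) with 95% intervals (bars) of the 12 claudin probe sets tested, in the 4 comparisons named above the panels. The interval of Cldn6 between P0 and E17 runs from -0.86 to -0.32, and in the comparison of BPA with Control every interval crosses 0.

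BPA and DES were also compared directly, as agents of different potency given at different doses. No claudin passed the test (0% of all probe sets did), and no claudin probe set was past an unadjusted p of 0.05, where 7.21% of all probe sets were. The smallest limma adjusted p, 0.702, belonged to Cldn1 probe set 2, which read 76 ± 19.2 on the BPA arrays and 55.1 ± 8.78 on the DES arrays (SD, n = 3) and was higher in 3 of 3 pairs, by 0.41 ± 0.21. For Cldn10 the difference was 0.00 ± 0.16, with a 95% interval from -0.36 to 0.37. These differences were 0.43 ± 0.25 for Cldn1 probe set 2 and 0.06 ± 0.19 for Cldn10 without the BPA P0 array. The doses of the agents differ, so these values compare the 2 exposures as given.

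Whether an agent's difference grew or shrank with age was fitted as a slope per age step, from E17 to E18 and from E18 to P0. No slope passed the limma test (0% of all probe sets for either agent). Cldn8 had the only DES slope of the 12 with an unadjusted p under 0.05, 0.29 ± 0.11 per step (p 0.0288, limma adjusted p 0.766), where 6.36% of all probe sets had one. It was 0.13 without the DES E17 array and 0.46 without the DES P0 array. It read 826, 813 and 734 on the control arrays, 684, 889 and 915 on the DES arrays and 962, 827 and 716 on the BPA arrays in order of age. The DES arrays read upward with age and the others downward, so Cldn8 began below control on DES and ended above it. Cldn7 had the only such BPA slope, -0.32 ± 0.12 per step (p 0.0285, limma adjusted p 0.575), where 8.08% of all probe sets had one. Without the BPA P0 array it was -0.41 ± 0.20 (limma adjusted p 0.985), without the control E17 array -0.12 and without the control P0 array -0.52. It read 608, 728 and 663 on the control, 681, 701 and 657 on the DES and 779, 611 and 542 on the BPA arrays. The BPA arrays were the highest at E17 and the lowest at E18 and P0. Over the 9 arrays the log2 signal of Cldn7 correlated at r = -0.73 with the mean of the cornifying epidermis genes. This was the largest of the 8 claudins in size, and the others ran from -0.42 for Cldn6 to 0.38 for Cldn1. These values describe arrays that share their scaling, and the part of those genes' source in the slope was not tested.

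Across the 9 arrays the members did not vary as a single group. Cldn4 and Cldn10 read alike (Pearson r 0.85 of log2 signals), as did Cldn1 and Cldn3 (0.71), while Cldn1 and Cldn6 ran in opposite ways (-0.59). Cldn3 and Cldn4 are adjacent genes on chromosome 5, and their r was 0.03. Cldn4, Cldn8 and Cldn10 followed the mean of the epithelial markers (r 0.76, 0.76 and 0.77), with lower r for Cldn23 (0.44), Cldn3 (0.43), Cldn7 (0.29), Cldn6 (0.18) and Cldn1 (-0.10). Residual variance after age and agent was lowest for Cldn6 at 1.46% and highest for Cldn8 at 88.8%. The arrays share their scaling, and agents share ages, so these values describe 9 arrays only.

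Each claudin was also set against 13397 other genes for the most similar pattern over the 9 arrays. Cldn6 ran closest to S1pr3 (r 0.969), Cdc25a (0.958) and Igf2bp1 (0.946). Cldn1 probe set 1 ran closest to Jak1 (0.985), Egfl7 (0.976) and Mapk4 (0.976), and 120 genes exceeded r 0.9 with it, against 22 for Cldn6. Cldn4 ran closest to the chaperone genes Hspd1 (0.949) and Hsp90aa1 (0.947) and then to Lpcat3 (0.939), and Cldn10 to Polr3g (0.948). The nearest gene was Rnf213 for Cldn3 (0.943), Pknox1 for Cldn7 (0.938), Loxl3 for Cldn8 (0.924) and Tbxas1 for Cldn23 (0.989). Each of the 8 claudins had at least 6 genes above r 0.9 over these 9 arrays, with 6 for Cldn7 and Cldn23 and 8 for Cldn4. How many unrelated genes among 13397 would reach that r over 9 arrays was not tested. The named genes therefore describe similar readings on these arrays and are not read as shared regulation.

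Other claudins were read as a comparison from a list of 14, of which 12 had a probe set and 8 were bright enough to test. None passed the limma test in the comparisons of BPA, DES and Control or of P0 with E17. Between P0 and E17, 6 of the 8 lay above 0, with a median of 0.11, and 2 were higher and 2 lower at an unadjusted p under 0.05, where 8.06% and 9.27% of all probe sets were. Cldn9, the gene next to Cldn6 on chromosome 17, read 21.2, 56.7 and 73 on the control arrays in order of age. The DES arrays read 30.1, 39.9 and 64.1, and the BPA arrays 42.2, 33.4 and 62.2. The mean of Cldn9 at E17, 31.2, was under the level of 41.2 required for testing, which it met through its brighter ages, so its separation by age and its place among the 2 higher genes are not read as a result. Cldn5, the claudin of endothelium, read 422 ± 12.5 at E17 and 597 ± 71.3 at P0, a difference of 0.49 ± 0.11 (limma adjusted p 0.109), and 0.47 ± 0.13 without the BPA P0 array. Beside it, 5 of 6 endothelial markers lay above 0 (median 0.24), with summed signals of 2437 to 2687 at E17 and 2792 to 3189 at P0, and their part in the Cldn5 value was not tested. Cldn12 read 403 ± 43.7 at E17 and 308 ± 66.2 at P0, a difference of -0.40 ± 0.12 (limma adjusted p 0.166), and -0.47 ± 0.13 without that array.

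Against control, Cldn12 gave 0.41 ± 0.12 for DES (p 0.00662, limma adjusted p 0.843), and Cldn11, the claudin of myelin and Sertoli cells, gave -0.31 ± 0.12 for BPA (p 0.0321, limma adjusted p 0.588), or -0.23 ± 0.14 without the BPA P0 array. These were the smallest unadjusted p of the other claudins for each agent.

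Of 27 genes for the proteins that work with claudins, 26 had a probe set and 25 were tested, and none passed the limma test in those 4 comparisons. Between P0 and E17, 13 lay above 0 and 12 below 0, with a median of 0, and 5 were higher and 2 lower at an unadjusted p under 0.05, where 8.06% and 9.27% of all probe sets were. Ildr2, an angulin of the corners where 3 cells meet, read 192 ± 40.7 at E17 and 291 ± 56.4 at P0 (SD, n = 3), a log2 difference of 0.59 ± 0.12 (limma adjusted p 0.101). The scaffold genes Tjp1 and Magi3 read lower at P0, with differences of -0.26 ± 0.08 (limma adjusted p 0.173) and -0.35 ± 0.12 (limma adjusted p 0.196). All P0 arrays of Tjp1 lay below all its E17 arrays, and those of Ildr2 lay above. They were among 6 partners wholly higher and 2 wholly lower at P0 of the 25, where 9.94% and 9.92% of all probe sets separated. With the BPA P0 array left out the P0 differences were 0.60 ± 0.14 for Ildr2, -0.19 ± 0.08 for Tjp1 and -0.25 ± 0.12 for Magi3.

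Tjp3, the zonula occludens scaffold found in epithelia, read 82.6 ± 8.86 on the control arrays, 117 ± 26.9 on the DES arrays and 117 ± 16 on the BPA arrays (SD, n = 3). Its arrays lay wholly above control for both agents, which share the 3 control arrays. The log2 differences of Tjp3 were 0.46 ± 0.18 for DES (limma adjusted p 0.843) and 0.47 ± 0.18 for BPA (limma adjusted p 0.577). Of the 25 partners tested, 3 lay wholly above and 3 wholly below control for DES, and 2 and 1 for BPA. For DES 5.87% of all probe sets lay wholly higher, and that share is not given here for BPA. Occludin (Ocln) read lower on DES, 308 ± 34 against 400 ± 21.7, a difference of -0.38 ± 0.14 (limma adjusted p 0.843), and gave -0.17 ± 0.14 for BPA. The angulin gene Lsr read lower on DES by -0.32 ± 0.13 and gave 0.01 ± 0.13 for BPA. Ildr2 gave 0.45 ± 0.12 for BPA (p 0.00403, limma adjusted p 0.436) and 0.00 ± 0.12 for DES, and Prkcz, the gene of an atypical protein kinase C of cell polarity, gave -0.52 ± 0.20 for BPA. Without the BPA P0 array the BPA differences were 0.51 ± 0.22 for Tjp3, -0.23 ± 0.16 for Ocln, 0.06 ± 0.15 for Lsr, 0.46 ± 0.14 for Ildr2 and -0.41 ± 0.23 for Prkcz.

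**Figure D4:**
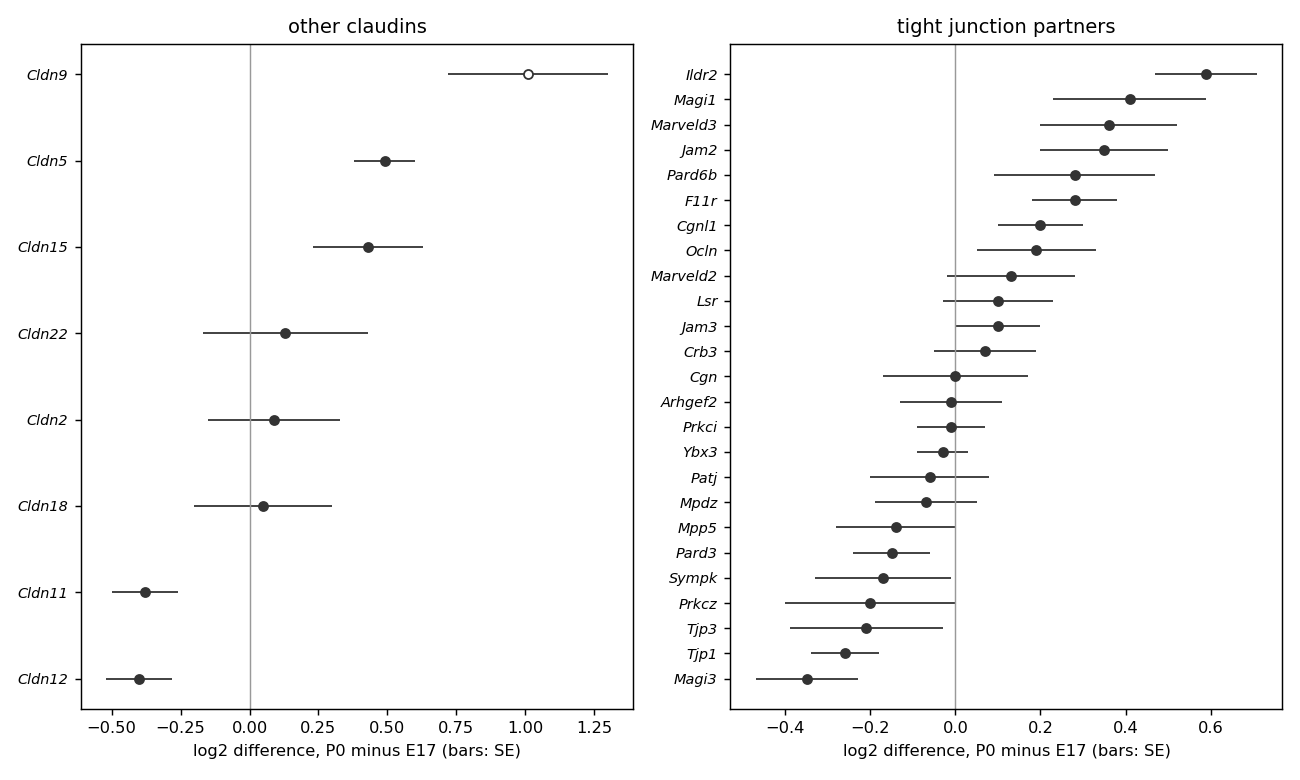
Fitted log2 differences between P0 and E17 (horizontal axis, points) with their SE (bars) for 8 other claudins (left) and 25 genes of tight junction partners (right). The open point is Cldn9, whose mean at E17 was under the level required for testing; Cldn5 lies at 0.49 and Cldn12 at -0.40 on the left, and Ildr2 at 0.59 and Magi3 at -0.35 mark the ends on the right.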

How the data were processed

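Total RNA of 9 urogenital sinus samples was hybridised to 1 array each. The authors deposited linear intensities, 1 per probe set and array, made with MAS5 per the submitters' processing notes, with version and scaling target not given in the sources used here. The deposited intensities were not on a common level, which unscaled comparisons would read as change, so arrays were quantile normalised. Before the log2 step 5.46, the 10th percentile of normalised signal, was added, which understates differences of dim probe sets.

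The dimmest probe sets, under the 40th percentile by mean log2 signal, and 64 control probe sets were left out, and the other 26999 were fitted with limma 3.58.1 in R 4.3.3 (agent and age as factors, 4 residual degrees of freedom, intensity trend), with Benjamini-Hochberg adjustment over all of them at 0.05. Slopes by age came from a fit with 3 residual degrees of freedom. The scripts were tested on simulated data. No 2 of the 9 arrays were identical (36 pairs, lowest r 0.953).

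Named genes are all single-symbol probe sets of the 8 claudins, the brightest leading, the 3 genes closest in pattern, and the partner and marker genes with the smallest p, up to 3 a comparison. Neighbouring genes, promoters and motifs use RefSeq tables of GRCm38.p6, to whose Entrez identifiers 34754 of 34958 probe sets matched. The members and the gene lists were chosen with earlier results of these data known. Figures were drawn with matplotlib 3.10.9. Alternatives changed scaling, pseudocount, filter, probe set choice, block, variance trend, epithelial content and arrays.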

Additional observations from a re-analysis of the deposited data

How the results depend on the processing

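The claudin values were recomputed under 20 alternatives. No claudin passed the limma test under any of them for the agents or the slopes. The number of all probe sets past it there was 0 as reported; with the values as deposited it was 34 for BPA against Control, 38 for BPA against DES, 105 for the BPA slope and 2 for the DES slope, and with the epithelial mean subtracted 27 for BPA against Control and 2 for the BPA slope. With 1 probe set per gene 2 passed for BPA against Control and 7 for the BPA slope, and 12 for that slope with a pseudocount of 32. Leaving out 1 array gave 0 to 7 for BPA against Control, 0 to 4 for BPA against DES, 0 to 21 for the BPA slope and 0 to 1 for the DES slope. Without the E18 and P0 arrays of BPA 4 passed for BPA against Control and 6 for BPA against DES, and without the P0 array of BPA and the E17 array of DES 24 for the BPA slope and 1 for the DES slope. Between P0 and E17 the number of claudin probe sets past it was 0 as reported, 1 with the values as deposited (Cldn6, -0.89) and 0 to 2 with 1 array left out in turn, the 2 being Cldn1 and Cldn6 without the DES P0 array. The number of all probe sets past it in that comparison was 25 as reported, 392 with the values as deposited, 62 with a pseudocount of 32, 7 without the filter on dim probe sets, 83 with 1 probe set per gene, 0 without the variance trend, 167 with the epithelial mean subtracted, 0 to 1606 with 1 array left out, and 0 without either pair of arrays; the causes were not tested. In the reported fit, where 25 passed for P0 against E17, 4681 probe sets had an unadjusted limma p under 0.05. That number is not given here for the settings where 0 passed. Cldn6, Cldn4 and Cldn10 stayed below 0 and both tested Cldn1 probe sets above 0 between P0 and E17 under every alternative run on them. Direction turned in 142 of 1368 values, 79 of them with 1 array left out; none of the 142 passed the test in either setting, the reported values among them were at most 0.32 in size, and the cause was not tested. Other pseudocounts, no filter, 1 probe set per gene, no block and no variance trend turned 0 values. The labels give no replicate numbers; the reported fit pairs arrays by age or by agent as a block, and without that block no claudin call changed. Leaving out the BPA P0 array for the other claudins and junction partners was chosen after seeing the data. The number of arrays limits the precision. With the values as deposited, the log2 values for BPA against Control turned to -0.20 for Cldn1 probe set 1, -0.09 for Cldn23, -0.15 for Cldn3 probe set 1, -0.22 for Cldn3 probe set 2, -0.06 for Cldn4 and -0.19 for Cldn8. In DES against Control they were 0.07 for Cldn3 probe set 4 and 0.05 for Cldn3 probe set 1. In BPA against DES they were -0.28 for Cldn10, -0.20 for Cldn3 probe set 1, -0.22 for Cldn3 probe set 2, -0.30 for Cldn3 probe set 3, -0.27 for Cldn4 and -0.34 for Cldn8. In P0 against E17 they were -0.13 for Cldn3 probe set 4, -0.06 for Cldn3 probe set 1 and -0.02 for Cldn3 probe set 2. In the BPA slope they were -0.01 for Cldn23. In the DES slope they were 0.07 for Cldn3 probe set 1 and 0.07 for Cldn6. With arrays scaled to a common trimmed mean, the log2 values for BPA against DES turned to 0.01 for Cldn3 probe set 4 and 0.00 for Cldn8. In the BPA slope they were 0.02 for Cldn1 probe set 1, 0.02 for Cldn3 probe set 3 and 0.04 for Cldn6. In the DES slope they were 0.05 for Cldn3 probe set 1 and 0.06 for Cldn6. With the epithelial mean subtracted, the log2 values for BPA against Control turned to -0.11 for Cldn1 probe set 1, 0.00 for Cldn23, -0.05 for Cldn3 probe set 1, -0.12 for Cldn3 probe set 2 and -0.09 for Cldn8. In DES against Control they were -0.05 for Cldn7 and -0.03 for Cldn8. In BPA against DES they were -0.07 for Cldn10, -0.03 for Cldn3 probe set 3 and -0.06 for Cldn8. In the BPA slope they were 0.02 for Cldn1 probe set 1, 0.04 for Cldn3 probe set 3 and 0.04 for Cldn6. In the DES slope they were -0.07 for Cldn3 probe set 4 and -0.09 for Cldn4. Without the E18 and P0 arrays of BPA, the log2 values for BPA against Control turned to 0.17 for Cldn1 probe set 2, 0.20 for Cldn3 probe set 4 and 0.29 for Cldn7. In BPA against DES they were 0.21 for Cldn3 probe set 4 and 0.26 for Cldn7. In P0 against E17 they were 0.04 for Cldn7 and 0.12 for Cldn8. Without the P0 array of BPA and the E17 array of DES, the log2 values for BPA against Control turned to -0.08 for Cldn1 probe set 1, -0.05 for Cldn23, -0.01 for Cldn3 probe set 2 and 0.04 for Cldn7. In DES against Control they were 0.16 for Cldn3 probe set 4 and 0.09 for Cldn3 probe set 1. In BPA against DES they were -0.10 for Cldn10, -0.07 for Cldn3 probe set 3 and -0.10 for Cldn8. In P0 against E17 they were -0.04 for Cldn3 probe set 4. In the BPA slope they were -0.35 for Cldn23. In the DES slope they were 0.00 for Cldn10, -0.26 for Cldn3 probe set 4 and -0.11 for Cldn4. With 1 array left out in turn, the values that took both signs for BPA against Control ranged from -0.08 to 0.19 for Cldn1 probe set 1, -0.27 to 0.06 for Cldn1 probe set 2, -0.03 to 0.36 for Cldn23, -0.14 to 0.08 for Cldn3 probe set 4, -0.06 to 0.24 for Cldn3 probe set 1, -0.15 to 0.25 for Cldn3 probe set 2, -0.23 to 0.00 for Cldn3 probe set 3, -0.24 to 0.04 for Cldn7 and -0.09 to 0.19 for Cldn8. For DES against Control they ranged from -0.23 to 0.15 for Cldn3 probe set 4, -0.15 to 0.10 for Cldn3 probe set 1, -0.27 to 0.06 for Cldn3 probe set 2, -0.11 to 0.10 for Cldn7 and -0.10 to 0.26 for Cldn8. For BPA against DES they ranged from -0.13 to 0.09 for Cldn10, -0.30 to 0.09 for Cldn23, -0.17 to 0.22 for Cldn3 probe set 4, -0.04 to 0.26 for Cldn3 probe set 1, -0.02 to 0.33 for Cldn3 probe set 2, -0.09 to 0.17 for Cldn3 probe set 3, -0.07 to 0.18 for Cldn4, -0.27 to 0.01 for Cldn7 and -0.19 to 0.17 for Cldn8. For P0 against E17 they ranged from -0.25 to 0.09 for Cldn23, 0.00 to 0.26 for Cldn3 probe set 4, -0.29 to 0.03 for Cldn7 and -0.26 to 0.10 for Cldn8. For the BPA slope they ranged from -0.65 to 0.61 for Cldn1 probe set 1, -0.81 to 0.18 for Cldn1 probe set 2, -0.23 to 0.05 for Cldn10, -0.35 to 0.80 for Cldn23, -0.50 to 0.31 for Cldn3 probe set 4, -0.57 to 0.14 for Cldn3 probe set 1, -0.57 to 0.11 for Cldn3 probe set 2, -0.18 to 0.17 for Cldn3 probe set 3 and -0.05 to 0.04 for Cldn6. For the DES slope they ranged from -0.79 to 0.28 for Cldn1 probe set 1, -0.01 to 0.27 for Cldn10, -0.36 to 0.46 for Cldn3 probe set 4, -0.16 to 0.16 for Cldn3 probe set 1, -0.50 to 0.20 for Cldn3 probe set 3, -0.16 to 0.20 for Cldn4, -0.13 to 0.09 for Cldn6 and -0.28 to 0.11 for Cldn7.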
